A study of Mus musculus with 6 samples.

Results

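White and brown adipocyte genes, 30 in all, were followed in left ventricular myocardium, in 6 RNA sequencing libraries from 3 Chow and 3 HFpEF mice, among 54532 gene identifiers measured. The 30 genes were listed by name as adipokines (4 genes), lipid droplet genes (7), lipid metabolism genes (7), thermogenic genes (6), and regulators and other adipocyte genes (6), and each symbol was matched to its Ensembl identifier through GENCODE. The list was drawn up with the HFpEF against Chow difference in these same libraries known, so that difference is given for the 30 genes as a description, without a test. All mice were male C57BL/6, 6 to 8 weeks old at the start, and were kept for 12 weeks. The HFpEF mice received a high-fat diet with 60% of kcal from fat and drank water with 0.5 g/L L-NAME, which blocks nitric oxide synthase, as a combined metabolic and hypertensive model of heart failure with preserved ejection fraction. The Chow mice received standard chow and no L-NAME, so the effects of diet and drug cannot be told apart. Each library came from a separate mouse. The labels name the tissue only as heart, and the methods name it as left ventricle.

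White adipocytes store triglyceride in a single large lipid droplet coated by perilipins and secrete hormones called adipokines, while brown adipocytes burn lipid in mitochondria uncoupled by Ucp1. Fat cells lie on the heart as epicardial and perivascular depots, and cardiomyocytes also handle triglyceride with several of the same enzymes. RNA from whole tissue holds the transcripts of both.

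The list split accordingly in the Chow hearts. Of its 30 genes, 14 had at most 3 reads in every Chow library, where reads are the whole fragment numbers recovered from FPKM, the deposited unit (fragments per kilobase of exon after scaling for depth). The 14 were Cfd, Adipoq, Lep, Retn, Plin1, Cidec, Lgals12, Pck1, Car3, Cyp2e1, Ucp1, Elovl3, Adrb3 and Acvr1c. The other 16 genes had Chow means from 0.139 FPKM for Dio2 to 142.5 FPKM for Dgat2, so the label of adipocyte genes describes the first set in this tissue and only in part the second. Together, the 14 genes had 6, 10 and 2 reads in Chow replicates 1, 2 and 3 against 3470, 3938 and 1463 in HFpEF replicates 1, 2 and 3. Per 1000000 recovered reads this was 0.385, 0.765 and 0.151 against 257.8, 245.7 and 96.3. The HFpEF libraries stood far apart from the Chow libraries, and HFpEF 3 held the smallest amount of the 3. More fat cells in the sample, from any depot, and more RNA per fat cell cannot be told apart in such bulk tissue. How much depot fat each sample took in at dissection is not known.

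Libraries held 13076772 to 15574914 recovered reads in Chow and 13461735 to 16027084 in HFpEF. HFpEF 3 stood apart from the other 5 libraries: mitochondrially encoded genes took 7.17% of its reads, against 20.1% to 26.0% elsewhere, and the summed FPKM of 8 fibroblast and stromal markers was 2990 against 279.5 to 500.9, of which Col1a1 alone gave 2252. Without Col1a1 the sum was 738.2 in HFpEF 3 against 254.6 to 447.0. The 8 ventricular cardiomyocyte markers were present in every library, with sums of 15129 to 16643 FPKM in Chow and 7235 to 11369 in HFpEF.

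The promoters of 5 genes on which the results turn are shown because all of them were read in HFpEF hearts from a Chow level of at most 1 read, and because Ucp1 then departed from the others in 1 HFpEF library. Each runs from 250 bases before to 50 bases after the annotated start in RefSeq (GRCm38.p6), 5′ to 3′ on the gene's own strand. Capitals mark matches to the C/EBP motif TTNCNNAA or to AGGTCA, the core element of nuclear receptors such as PPARγ, on either strand.
Cfd, chr10:79890603-79890902, plus strand: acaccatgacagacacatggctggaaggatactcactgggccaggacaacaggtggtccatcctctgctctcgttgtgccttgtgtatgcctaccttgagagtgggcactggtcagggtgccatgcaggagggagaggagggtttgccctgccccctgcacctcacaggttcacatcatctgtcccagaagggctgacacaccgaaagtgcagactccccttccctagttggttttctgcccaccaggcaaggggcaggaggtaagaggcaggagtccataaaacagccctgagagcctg
Adipoq, chr16:23146286-23146585, plus strand: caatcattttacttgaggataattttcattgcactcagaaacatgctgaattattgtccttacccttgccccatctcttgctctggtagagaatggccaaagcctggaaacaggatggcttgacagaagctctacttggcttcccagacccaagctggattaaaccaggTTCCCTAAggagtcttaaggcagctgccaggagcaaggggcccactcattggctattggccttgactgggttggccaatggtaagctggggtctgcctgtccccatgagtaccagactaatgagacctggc
Lep, chr6:29059971-29060270, plus strand: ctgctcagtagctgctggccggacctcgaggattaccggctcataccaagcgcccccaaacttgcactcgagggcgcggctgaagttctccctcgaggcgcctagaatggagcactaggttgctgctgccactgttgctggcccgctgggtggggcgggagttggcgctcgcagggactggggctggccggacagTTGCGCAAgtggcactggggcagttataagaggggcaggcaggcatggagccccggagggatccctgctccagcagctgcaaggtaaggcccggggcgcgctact
Plin1, chr7:79732727-79733026, minus strand: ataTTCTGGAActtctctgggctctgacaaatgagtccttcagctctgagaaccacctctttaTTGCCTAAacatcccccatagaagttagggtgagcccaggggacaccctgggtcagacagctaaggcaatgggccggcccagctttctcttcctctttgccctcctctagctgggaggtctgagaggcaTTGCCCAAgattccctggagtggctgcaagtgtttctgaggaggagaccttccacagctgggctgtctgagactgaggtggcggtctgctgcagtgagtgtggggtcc
Ucp1, chr8:83290098-83290397, plus strand: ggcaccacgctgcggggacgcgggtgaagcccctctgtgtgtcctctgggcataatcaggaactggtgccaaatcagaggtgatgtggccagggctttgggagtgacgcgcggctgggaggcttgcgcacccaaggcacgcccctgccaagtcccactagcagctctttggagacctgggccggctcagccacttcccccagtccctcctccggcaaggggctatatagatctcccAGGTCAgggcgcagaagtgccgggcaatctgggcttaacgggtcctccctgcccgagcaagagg

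Lep held a C/EBP match at bases -55 to -48 from its start, Adipoq at -81 to -74, and Plin1 at -247 to -240, -187 to -180 and -58 to -51. Ucp1 held no C/EBP match and a single AGGTCA at -14 to -9, and Cfd held neither motif. RefSeq promoters were matched for 21 of the 30 genes. The C/EBP motif occurred in 10 of these 21 (47.6%) and in 44.1% of all 27025 genes with a promoter, AGGTCA in 2 of 21 (Aqp7 and Ucp1, 9.52%) and in 18.1% of all, and TATAAA in 3 of 21 (Cebpa, Cyp2e1 and Dio2, 14.3%) and in 15.7% of all. A direct repeat of AGGTCA with 1 base between the copies, the arrangement read by PPARγ with RXR, was in none of the 21 and in 13 of all genes, and with 1 mismatch allowed in none of the 21 and in 174 of all. These are matches of letters within 300 bases and not evidence of binding.

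Adipokines were at 0 in every Chow heart and were detected in every HFpEF heart. Cfd, which encodes adipsin (complement factor D) and lies at chr10:79890853-79892655, had 0, 0 and 0 reads in Chow and 451, 591 and 407 reads in HFpEF, at 35.3, 37.8 and 22.9 FPKM. Its mean of 32.0 ± 8.01 FPKM (SD, n = 3) was at least 124-fold higher than 3 reads per Chow library would give, and its FPKM in HFpEF 3 was 0.648 of that in HFpEF 1. Adipoq, the gene of the insulin-sensitizing hormone adiponectin at chr16:23146536-23158028, had 0 Chow reads and 128, 146 and 51 HFpEF reads, or 6.68, 6.24 and 1.91 FPKM (4.94 ± 2.64, at least 28.7-fold higher). Its levels in HFpEF 1 and 2 were close together and HFpEF 3 was well below both. Lep, the gene of the satiety hormone leptin, had 0 Chow reads and 42, 25 and 14 HFpEF reads, at 0.903, 0.440 and 0.216 FPKM (at least 7.31-fold higher). Retn, the gene of resistin, had 0 Chow reads and 9, 28 and 12 HFpEF reads, at 0.411, 1.05 and 0.393 FPKM (at least 4.09-fold higher) and was highest in HFpEF 2. Leptin and resistin were thus detected in all 3 HFpEF hearts, but on few reads.

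Lipid droplet genes fell into the same 2 classes. Plin1, which coats the droplet of white and brown fat cells and gates lipolysis (chr7:79720218-79732903), had 0, 1 and 0 reads in Chow and 314, 407 and 100 in HFpEF, at 4.87, 5.17 and 1.11 FPKM. Against its single Chow read the ratio was 624, with a 95% exact counting interval of 111.6 to 24666. This interval and those of the other ratios to Chow reads pool the reads of all mice in a group. Such intervals cover counting error only, not the spread between mice, and are no test of the groups. Cidec, which enlarges droplets by fusing them (chr6:113424634-113435760), had 0 Chow reads and 180, 294 and 82 HFpEF reads, at 6.99, 9.35 and 2.29 FPKM (at least 48.4-fold higher). Both droplet proteins of fat cells were therefore near or at 0 in Chow and lowest in HFpEF 3 among the HFpEF libraries. Lgals12, a droplet-associated galectin of adipocytes, had 3, 3 and 0 Chow reads and 55, 27 and 10 HFpEF reads, a ratio of 11.6 (interval 5.15 to 32.6).

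The droplet genes that the Chow heart already expressed did not separate the groups upward. Plin4, a perilipin of small droplets and of muscle, was at 26.6, 29.1 and 29.99 FPKM in Chow and 30.2, 30.04 and 18.9 in HFpEF. Lipe, the hormone-sensitive lipase, was at 8.27, 8.31 and 8.48 FPKM in Chow and 8.02, 8.41 and 5.53 in HFpEF. For both genes HFpEF 1 and 2 lay within or near the Chow range and HFpEF 3 was the lowest of all 6 libraries. Aqp7, the channel through which glycerol leaves the cell, was lower in every HFpEF library (8.92, 11.4 and 7.43 FPKM) than in any Chow library (14.5, 15.6 and 13.1). Pnpla3, a patatin-like lipase and acyltransferase under lipogenic control, was at 0.545, 0.386 and 0.961 FPKM in Chow and 1.82, 2.06 and 0.468 in HFpEF, where HFpEF 3 lay inside the Chow range.

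Lipid metabolism genes ranged from the most-read of the 14 near-absent genes to Dgat2, which was lower in HFpEF. Car3, a carbonic anhydrase abundant in adipocytes (chr3:14863512-14872523), had 0, 1 and 0 reads in Chow and 1354, 1367 and 433 in HFpEF, at 34.1, 28.2 and 7.82 FPKM, and took more reads than any other of the 14 genes in each HFpEF library. Its ratio to the single Chow read was 2396 (interval 429.8 to 94673). Pck1, which in fat makes glycerol 3-phosphate for triglyceride, had 0, 3 and 0 Chow reads and 408, 413 and 79 HFpEF reads (ratio 227.9, interval 77.7 to 1107). Cyp2e1, a cytochrome P450 expressed in liver and adipocytes, had 2, 1 and 0 Chow reads and 308, 355 and 238 HFpEF reads (ratio 228.2, interval 77.8 to 1108). Relative to HFpEF 1, HFpEF 3 was lowest for Pck1 (0.139 of the FPKM) and least low for Cyp2e1 (0.555) among these 3 genes. Cyp2e1 is also a liver gene. Of 14 hepatocyte markers, 6 were at 0 in every library, Alb, Apoc3, Fga and Fgb among them, while Ahsg was higher in every HFpEF library (178, 166 and 131 reads against 33, 13 and 51 in Chow). Their part in the Cyp2e1 values was not tested.

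Dgat2, the enzyme of the last step of triglyceride synthesis, was the most abundant of the 30 genes and lower in every HFpEF library (104.3, 98.7 and 56.5 FPKM) than in any Chow library (132.9, 142.4 and 152.4). Agpat2, an earlier step of the same pathway, was at 25.1, 27.0 and 19.99 FPKM in Chow and 22.5, 23.2 and 12.4 in HFpEF, with overlap. Gpd1, which links glycolysis to glycerol 3-phosphate, was at 17.98, 17.6 and 17.8 FPKM in Chow, above that in HFpEF 1 and 2 (21.8 and 21.7) and below it in HFpEF 3 (6.49). Thrsp (Spot 14), a lipogenic protein induced by thyroid hormone and carbohydrate, showed the same shape, at 5.74, 6.12 and 7.14 FPKM in Chow and 9.48, 13.3 and 4.75 in HFpEF. Agpat2 exons overlap those of Egfl7 on the other strand, and the strand setting of the counting is not given in the sources used here, so reads of such a pair cannot be told apart. The same holds for exons of Plin4 with Hdgfl2 and of Mest with Copg2.

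Of the thermogenic genes, Ucp1 was detected in HFpEF 1 and 2 but not in HFpEF 3. Ucp1, the uncoupling protein that defines brown and beige fat (chr8:83290352-83298452), had 0 reads in all 3 Chow libraries, 136 and 231 in HFpEF 1 and 2, and 0 in HFpEF 3. Its FPKM was 5.99, 8.33 and 0. HFpEF 3 was thus at 0 for Ucp1, as the Chow libraries were, although it held 407 Cfd and 51 Adipoq reads. Ucp1 reads per Adipoq read were 1.06 (95% exact interval 0.828 to 1.36) in HFpEF 1 and 1.58 (1.28 to 1.96) in HFpEF 2. For HFpEF 3, a limit of 3 reads set for the count of 0 gave 0.0588. That limit takes the 51 Adipoq reads as fixed and is not an exact interval. Adrb3, the β3-adrenergic receptor that triggers lipolysis and thermogenesis, had 0, 1 and 1 Chow reads and 59, 38 and 35 HFpEF reads (ratio 50.1, interval 13.6 to 418.4), so that it remained detected in HFpEF 3. Elovl3, a fatty acid elongase strongly induced by cold in brown fat, was listed at 0 in 5 libraries and at 0.0395 FPKM in HFpEF 2.

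The other 3 thermogenic genes were read in the Chow heart. Cidea, a droplet protein of brown fat, was at 16.0, 15.4 and 19.9 FPKM in Chow and 16.3, 16.3 and 10.3 in HFpEF. Slc36a2, an amino acid transporter used as a brown fat surface marker, was at 8.24, 11.4 and 8.13 FPKM in Chow and 9.39, 11.6 and 2.61 in HFpEF. For these 2 genes HFpEF 1 and 2 overlapped Chow and HFpEF 3 was the lowest library of the 6. Dio2, which activates thyroid hormone, was at 0.0846, 0.205 and 0.128 FPKM in Chow and 1.08, 0.376 and 0.507 in HFpEF, without overlap and 4.69-fold higher in the mean.

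Among the regulators, Cebpa, a transcription factor of terminal adipocyte differentiation (chr7:35119293-35121928), was at 5.22, 4.56 and 4.49 FPKM in Chow and 10.1, 13.5 and 19.9 in HFpEF. Its mean was 3.04-fold higher and, in contrast to most of the list, its highest value was in HFpEF 3. Acvr1c, the activin receptor ALK7 of mature adipocytes, had 1, 0 and 1 Chow reads and 26, 15 and 2 HFpEF reads (ratio 16.3, interval 4.26 to 139.2), with HFpEF 3 next to the Chow libraries. Mest, an imprinted gene linked to adipocyte size, was at 2.21, 1.36 and 1.76 FPKM in Chow and 2.28, 1.62 and 4.87 in HFpEF, and like Cebpa was highest in HFpEF 3. Mrap (2.71, 3.94 and 2.77 FPKM in Chow; 3.05, 3.66 and 1.70 in HFpEF), the accessory protein of the ACTH receptor, overlapped between groups. Nnat, an imprinted proteolipid, was at 1.31, 2.01 and 2.89 FPKM in Chow and 3.31, 4.29 and 2.24 in HFpEF, and Sncg (γ-synuclein) at 10.1, 7.71 and 8.35 against 10.3, 8.73 and 6.87. Neither gene separated the groups.

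**Figure D1:**
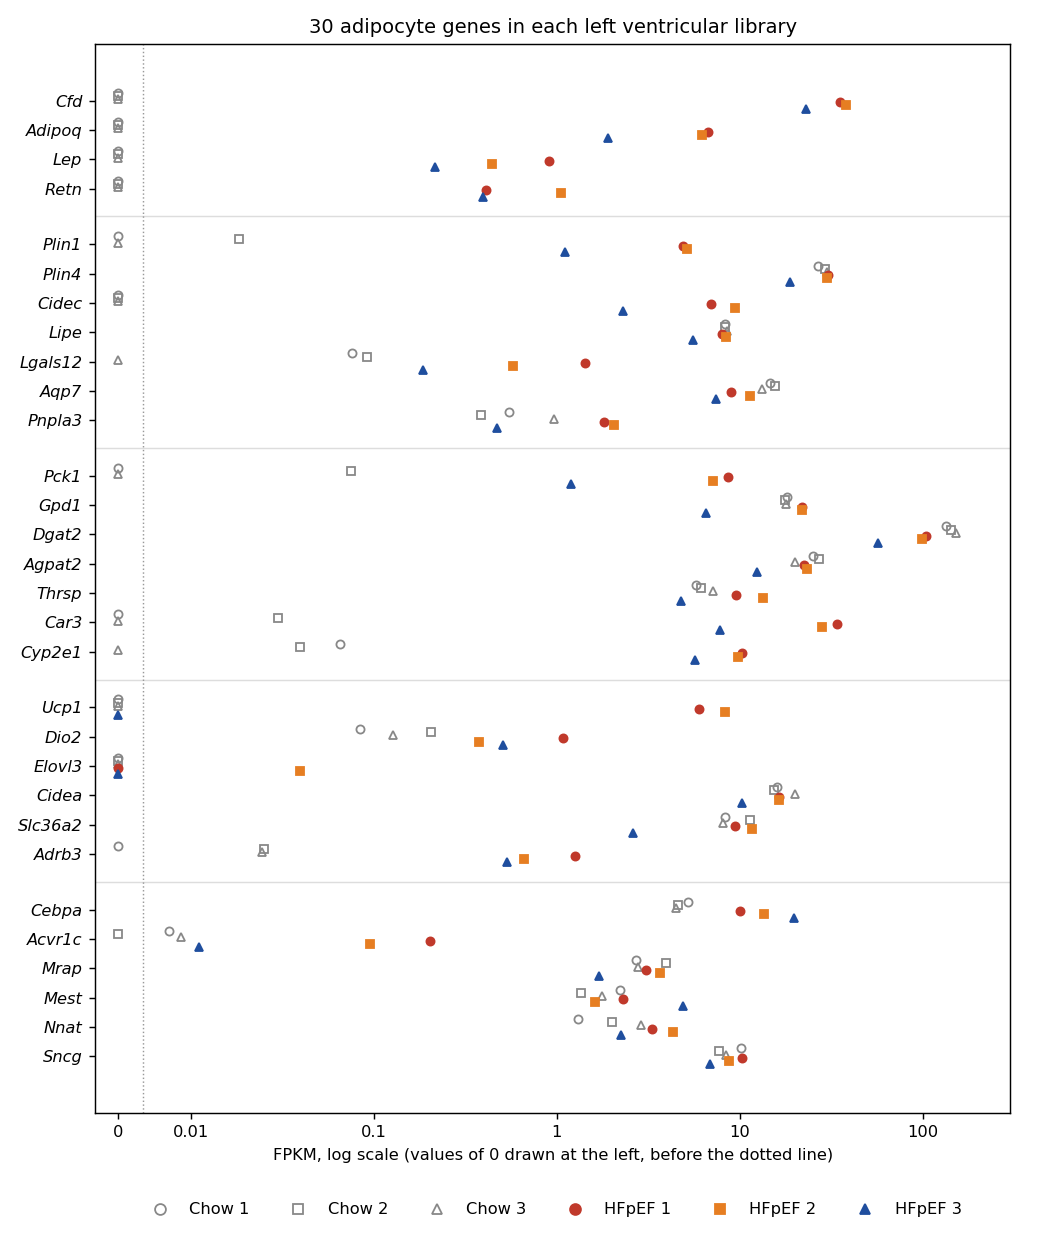
FPKM of the 30 genes (rows, grouped from top to bottom as adipokines, lipid droplet, lipid metabolism, thermogenic, and regulators and other genes) on a log axis, with values of 0 drawn left of the dotted line; open grey symbols are Chow libraries and filled symbols HFpEF libraries, 1 point per mouse. The Chow points of the 14 near-absent genes lie at or next to 0 while those of 12 of the other 16 overlap the HFpEF points (Dio2 and Cebpa lie higher and Dgat2 and Aqp7 lower in HFpEF), and the blue HFpEF 3 triangle is the lowest HFpEF point for 26 of the 30 genes.

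Over the whole list, 14 genes were higher in each HFpEF library than in any Chow library, 2 (Dgat2 and Aqp7) were lower in each, and 14 overlapped. Over the 27437 genes with FPKM above 0 in any library, 11.3% were higher in this sense and 11.3% lower. Because the list was chosen on this contrast, its share is not read against that background. Of the 14 genes near absent in Chow, 12 did not overlap, the exceptions being Ucp1 and Elovl3, and of the 16 others only Dio2 and Cebpa were higher without overlap. The median log2 ratio of group means, with 0.1 FPKM added, was 5.34 over the 14 genes, -0.10 over the other 16, 1.01 over all 30 and -0.0044 over all 14227 genes tested. The 14 genes were set apart by low Chow reads in a list chosen on this contrast, so their high median was fixed in advance. The filter on low values (at least 0.5 FPKM in 3 libraries) passed 23 of the 30 genes and left out Lep, Retn, Lgals12, Ucp1, Dio2, Elovl3 and Acvr1c.

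The counts over the list depended on the scaling. In FPKM, all 8 ventricular cardiomyocyte markers were lower in every HFpEF library, and dividing each library by their sum moved the median log2 ratio of all tested genes to 0.73. Per 1000 FPKM of these markers, Dgat2 was at 8.78, 8.97 and 9.16 in Chow and 9.73, 8.68 and 7.81 in HFpEF, and Aqp7 at 0.961, 0.981 and 0.789 against 0.832, 1.00 and 1.03. Both overlapped on this scale, whose shift of all genes is as large as their own log2 ratios of -0.72 and -0.64. The part of cardiomyocyte RNA in the values of Dgat2 and Aqp7 was not tested. On the same scale 22 genes of the list were higher in every HFpEF library and 0 lower, where 43.1% of all genes were higher and 0.561% lower. With libraries scaled to equal totals over nuclear genes, where the median of all tested genes was 0.25, 14 genes were higher in each and Dgat2 but not Aqp7 was lower, against 22.8% and 4.53% of all genes.

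The HFpEF libraries differed in how their reads on the 14 near-absent genes were made up. HFpEF 3 had the lowest FPKM of the HFpEF libraries for 26 of the 30 genes, against 43.8% of all tested genes. For 11 of the 16 heart-expressed genes it was the lowest of all 6 libraries. The share of all genes lowest of the 6 there was not computed, so the count of 11 is not read further. Relative to HFpEF 1, the 13 near-absent genes with reads there had a median FPKM of 0.934 in HFpEF 2 and 0.239 in HFpEF 3. Of the 14 genes' reads, Cfd took 13.0% (95% exact interval 11.9 to 14.2) in HFpEF 1 and 15.0% (13.9 to 16.2) in HFpEF 2, but 27.8% (25.5 to 30.2) in HFpEF 3. Cyp2e1 moved the same way, from 8.88% (7.95 to 9.87) and 9.01% (8.14 to 9.95) to 16.3% (14.4 to 18.3). Pck1 moved the other way, from 11.8% (10.7 to 12.9) and 10.5% (9.55 to 11.5) to 5.40% (4.30 to 6.68). Adipoq kept nearly the same share in all 3 libraries, at 3.69% (3.09 to 4.37), 3.71% (3.14 to 4.35) and 3.49% (2.61 to 4.56). Ucp1 took 3.92% (3.30 to 4.62) and 5.87% (5.15 to 6.65) in HFpEF 1 and 2. For its 0 of 1463 reads in HFpEF 3, a limit of 3 reads gives a share of 0.205%. These intervals cover counting error only, and each compares single mice.

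**Figure D2:**
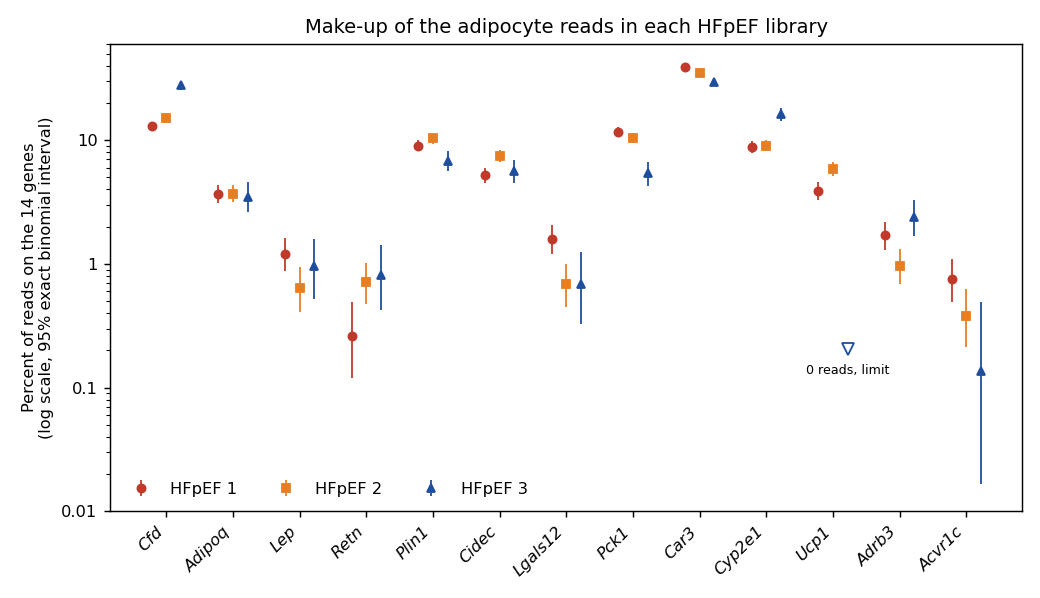
Share of the reads on the 14 near-absent genes that each gene took (percent, log axis) in the 3 HFpEF libraries, with 95% exact binomial intervals. Elovl3 is left out, and the open triangle is the limit of 3 reads set for the 0 Ucp1 reads in HFpEF 3. The Adipoq intervals of the 3 libraries overlap, while in HFpEF 3 Cfd and Cyp2e1 lie above and Ucp1 and Pck1 below the other libraries.

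Summed over all members, the thermogenic genes had 0.788 (95% counting interval 0.712 to 0.872), 0.818 (0.748 to 0.896) and 0.549 (0.483 to 0.624) times the FPKM of the adipokines in HFpEF 1, 2 and 3. In Chow the adipokine sum was 0 and no such ratio exists. Most of the thermogenic sum came from Cidea and Slc36a2, which the heart itself expressed, and over the near-absent genes alone the ratio was 0.168, 0.198 and 0.0212. The lipid droplet sum was 1.44, 1.47 and 1.41 times the adipokine sum over all members and 0.307, 0.331 and 0.141 over the near-absent genes. The lipid metabolism sum was 4.88, 4.43 and 3.74 times the adipokine sum over all members, and 1.22, 0.987 and 0.580 over the near-absent genes. HFpEF 3 was lowest on each of these FPKM sums, but for droplet genes this turned to the highest without the leading gene of each group (4.01, 4.79 and 6.75) and in recovered reads (6.37, 6.47 and 6.91), and for lipid metabolism genes without the leading gene (13.4, 13.4 and 15.2). For the thermogenic ratio HFpEF 3 was lowest under all 3 alternatives.

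Markers of other cell types moved with the libraries in several ways. The summed FPKM of the 4 atrial markers (Myl7, Nppa, Sln and Myl4) was 13.3, 16.2 and 538.2 in Chow and 2300, 3835 and 20.6 in HFpEF. HFpEF 1 and 2, which held the most RNA of the 14 genes near absent in Chow and the Ucp1 reads, were thus also the libraries with the most atrial RNA. In Chow 3, atrial markers stood at 538.2 FPKM while the 14 adipocyte genes summed to 0.0334 FPKM, and in HFpEF 3, atrial markers stood at 20.6 while the 14 genes summed to 44.2. All 4 atrial markers were above 0 in Chow 3 and HFpEF 3, and their part in the Ucp1 difference was not tested. Mesothelial markers, which line the epicardial surface, summed to 29.7, 19.0 and 27.6 FPKM in Chow and 36.9, 132.6 and 59.1 in HFpEF, with 5 of 7 markers higher in every HFpEF library (Msln, Upk3b and Krt19 the most abundant). Fibroblast markers (6 of 8 higher in every HFpEF library, with Col1a1, Dcn and Dpt in the lead) and macrophage markers (4 of 8, with Lyz2, C1qa and Csf1r in the lead) were highest in HFpEF 3, where the macrophage sum was 778.5 FPKM against 179.8 to 298.0 elsewhere. Of all genes above 0 in any library, 11.3% were higher in every HFpEF library, and of tested genes 15.5%. The part of these marker lists in the adipocyte gene values was not tested.

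**Figure D3:**
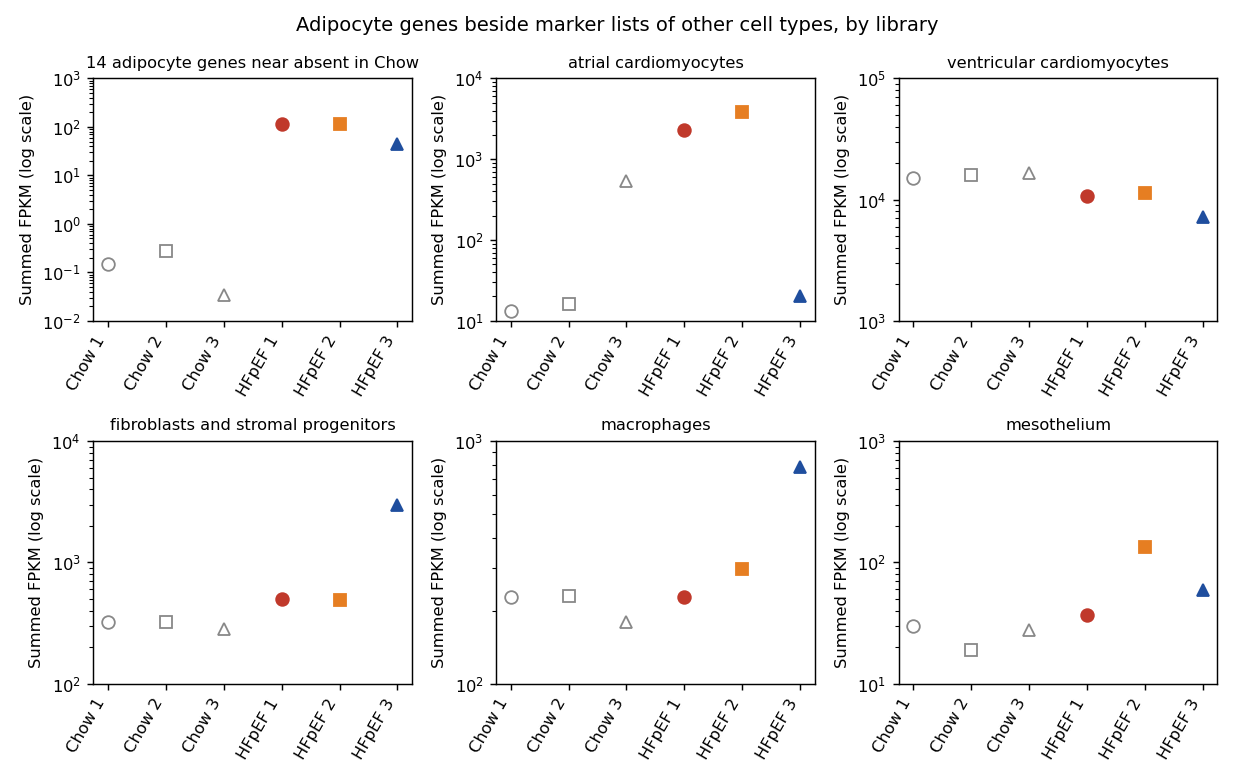
Summed FPKM (log axis, each panel with its own range) of the 14 adipocyte genes near absent in Chow and of 5 marker lists, 1 point per library. The 3 HFpEF libraries are above 40 FPKM and the Chow libraries below 0.3 for the adipocyte genes, whereas atrial markers are high in HFpEF 1, HFpEF 2 and Chow 3 and low in the other 3 libraries.

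The other lists were as follows. Hepatocyte markers summed to 0.855 to 3.87 FPKM in Chow and 3.91 to 7.86 in HFpEF, with Ahsg, Apoa2 and Tat in the lead and 1 of 14 (Ahsg) higher in every HFpEF library. Skeletal muscle markers summed to 4.62 to 6.75 FPKM in Chow and 4.58 to 7.11 in HFpEF, led by Mybpc2, Tnni2 and Actn3, with Myh4 at 0 in every library. Cartilage and valve markers (Comp, Fmod and Chad in the lead) summed to 5.87 to 8.18 in Chow and 16.0 to 62.9 in HFpEF. Endothelial markers (Cdh5, Pecam1 and Egfl7) summed to 201.1 to 223.0 in Chow and 161.4 to 173.9 in HFpEF, with 3 of 6 lower in every HFpEF library, and red blood cell markers (Hbb-bs, Hba-a1 and Hba-a2) overlapped. Of all genes above 0 in any library, 11.3% were higher and 11.3% lower in every HFpEF library. Of tested genes the shares were 15.5% and 19.8%.

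Among all genes, the pattern of near absence in Chow was uncommon. Of 8943 genes with at most 3 reads in every Chow library, 24 (0.268%) had at least 10 in every HFpEF library, and 10 of these 24 were in the list: Car3, Cfd, Cyp2e1, Plin1, Cidec, Pck1, Adipoq, Adrb3, Lep and Lgals12. Ordered by the reads in the lowest HFpEF library, the first 8 were all from the list. Because the list was drawn up with the HFpEF against Chow difference known, its part of the 24 is description only. The 10 others that followed with the most reads were Pak3, Diras2, Nfasc, Abcg4, Fabp7, Faim2, Cxcl13, Tpbg, Syn1 and Pon1, with 10 to 30 reads in their lowest HFpEF library. Cxcl13, a B cell chemokine, and Pon1 (paraoxonase 1) were lowest in HFpEF 3, at 0.176 and 0.189 of their HFpEF 1 FPKM, as the adipocyte genes were. Nfasc, Abcg4 and Syn1 were lowest there too, at 0.472, 0.462 and 0.849 of their HFpEF 1 FPKM. Of the 14 genes outside the list, 7 were highest in HFpEF 3, and of the 10 in the list none was. The share of all genes highest in HFpEF 3 was not computed, so these counts are not read further.

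To set the list beside the pathways it belongs to, 93 further genes in 8 lists were tested within the limma fit of all 14227 genes, which 89 of them entered. These lists too were chosen with earlier results of these data known, so their shares beside those of all genes are description only. At an adjusted p under 0.05, 2 of the 89 were higher and 0 lower in HFpEF, against 13 (0.0914%) higher and 1 (0.00703%) lower of all genes tested. Scd2, a stearoyl-CoA desaturase, was at 6.44, 6.70 and 6.31 FPKM in Chow and 13.8, 14.9 and 17.7 in HFpEF, a log2 fold change of 1.24 (standard error 0.12, adjusted p = 0.0333 by limma). Prkar2b, the regulatory subunit of protein kinase A that predominates in fat, was at 0.692, 0.748 and 0.679 FPKM in Chow and 3.61, 2.59 and 2.68 in HFpEF, a log2 fold change of 1.91 (standard error 0.19, adjusted p = 0.0334 by limma). Both were higher in 3 of 3 HFpEF libraries, and neither was called without any 1 Chow library or without HFpEF 1. Their adjusted p ranged from 0.00795 to 0.200 for Scd2 and from 0.0132 to 0.196 for Prkar2b over the alternatives by limma. Without HFpEF 3, 10 of the 89 were called higher and 17 lower, while calls over all tested genes grew to 2.85% higher and 5.5% lower. At an unadjusted p under 0.05 by limma, 17 of the 89 were higher and 30 lower, against 10.2% and 13.1% of all tested genes. With voom on recovered reads in place of FPKM, 23 of the 89 were higher and 15 lower at this limit. Of all 14227 tested genes, 3627 were then higher and 586 lower, so the balance of directions depended on the values fitted.

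The further lists differed in direction, which is given as description for the same reason. The fold changes and counts that follow are on the FPKM scale. De novo lipogenesis had 8 of 11 genes with a positive fold change (median log2 0.90, against -0.01 over all tested genes), with 7 of 11 higher in every HFpEF library against 15.5% of tested genes. Scd1, another desaturase, was chosen after its values were seen: it was at 5.26, 5.10 and 5.04 FPKM in Chow and 59.1, 76.5 and 11.1 in HFpEF, and missed the threshold (adjusted p = 0.119 by limma). Acacb (53.8, 53.1 and 53.5 FPKM in Chow; 40.2, 38.7 and 30.2 in HFpEF), the mitochondrial acetyl-CoA carboxylase that restrains fatty acid oxidation, and Me1, malic enzyme, had the highest mean FPKM of the list over all 6 libraries, with negative fold changes that missed the threshold (adjusted p = 0.118 and 0.176 by limma). Fatty acid uptake and binding had 0 of 9 genes with a positive fold change (median -0.56) and 7 of 9 lower in every HFpEF library against 19.8% of tested genes, none of them past the threshold. Its most abundant genes, Fabp3, the heart fatty acid-binding protein, and Cd36, the fatty acid translocase, were at -0.92 and -0.56 on the log2 scale (adjusted p = 0.119 and 0.145 by limma). Heart-expressed brown fat genes (median -0.59, led by the cytochrome oxidase subunits Cox8b and Cox7a1), lipolysis and general droplet genes (median -0.43, led by Pnpla2 and Fitm1) and triglyceride synthesis genes (median -0.37, led by Gpam and Agpat3) had 7 of 12, 7 of 12 and 6 of 11 genes lower in every HFpEF library. None of these passed the threshold. Ventricular cardiomyocyte markers, all 8 of them lower in FPKM in every HFpEF library (median log2 -0.68), moved with these lists, and their part was not tested.

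Adipogenic transcription factors had 7 positive and 7 negative fold changes (median -0.0043), with Cebpb (log2 0.50, adjusted p = 0.414 by limma) and Rxrg (-0.76, adjusted p = 0.187 by limma) the most abundant. Adrenergic lipolytic signaling genes had 5 of each (median -0.05), with Prkaca and Adcy6 the most abundant, and Prkar2b the only member called. Receptors for adipokines and other fat-derived hormones had 7 positive and 6 negative (median 0.20). Adipor1, an adiponectin receptor, was at 40.2, 42.2 and 41.7 FPKM in Chow and 35.1, 36.0 and 27.6 in HFpEF (log2 -0.34, adjusted p = 0.194 by limma), and Nampt, a secreted enzyme of NAD synthesis, was at -0.52 on the log2 scale (adjusted p = 0.131 by limma). The genes for receiving adiponectin were thus read in all hearts, Chow included, while the hormone's own gene was at 0 in Chow.

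**Figure D4:**
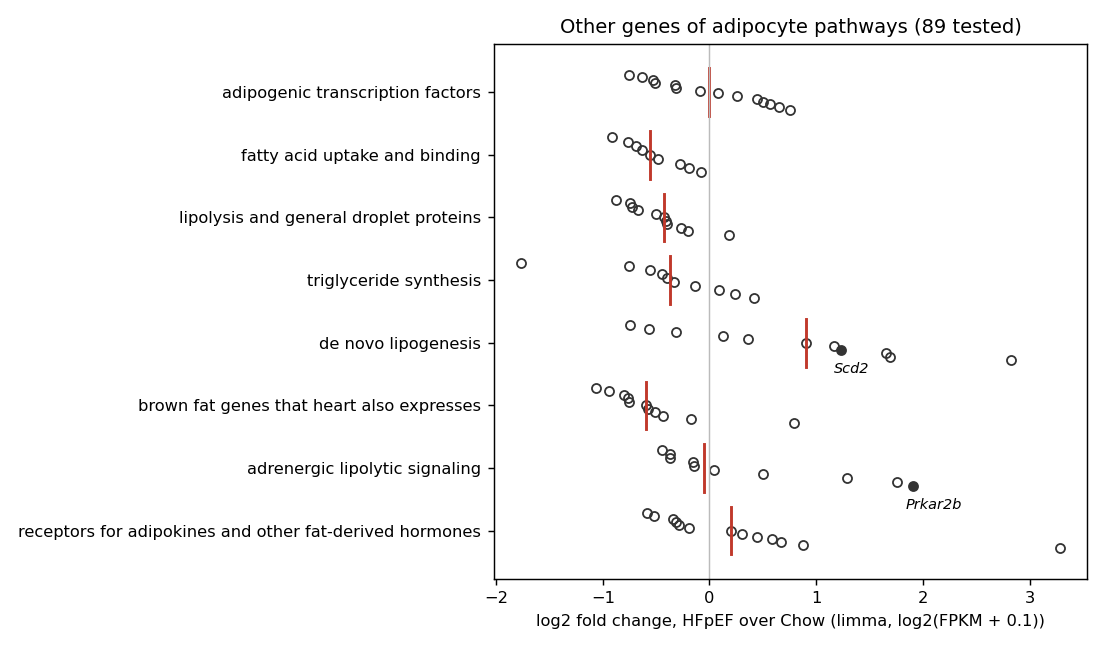
log2 fold changes of HFpEF over Chow from limma for the 89 tested genes of 8 further lists (rows), 1 point per gene; filled points have an adjusted p under 0.05 and red lines are list medians. Only Scd2 and Prkar2b are filled, the de novo lipogenesis median is at 0.90 and the fatty acid uptake and binding median at -0.56.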

How the data were processed

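Per the study's methods, alignment was by HISAT2 and gene counting by featureCounts, and the authors deposited FPKM for 54532 genes; the submitters' processing notes name GRCm38 and mm10. Strand setting and annotation release are not given in the sources used here. FPKM multiplied by GENCODE M21 exon length gave whole multiples of 1 read (relative tolerance 1e-06) for 96.1% to 96.2% of values above 0 per library, and reads were recovered from these steps. Exceptions lie mostly on chromosomes 17 to 19, and Cidea and Elovl3 are given in FPKM for that reason, while their rounded reads enter read sums. The depth implied by these steps is not the sum of the reads, so a further scaling between libraries is contained in the FPKM. The implied depth was below the recovered reads in each Chow library and above them in each HFpEF library.

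FPKM was rescaled by medians of ratios (factors 0.999 to 1.00). log2(FPKM + 0.1) of 14227 genes with at least 0.5 FPKM in 3 libraries was fitted with limma 3.58.1 in R 4.3.3 (trend and robust options, Benjamini-Hochberg adjustment), so fold changes of low genes are understated. The study tested counts; limma was used here because FPKM are not counts. The 30 genes, the further lists and the marker lists were chosen with earlier results of these data known. All 30 genes were to be named. From each further list, up to 3 called genes and the 2 most abundant were named, and from each marker list the 3 most abundant in HFpEF. The 10 genes outside the list with the most reads in their lowest HFpEF library, among those near absent in Chow, complete the rule. Results for 1 marker list covered by it are not reported here. Exact intervals are at 95% and cover counting error only, and a count of 0 was given a limit of 3 reads. All 6 libraries were used. Same-numbered Chow and HFpEF libraries did not deviate together (correlations -0.041, -0.073 and -0.057). Alternatives were other scalings, pseudocounts and filters, fits without trend and robust options, with a replicate block or with voom on recovered reads, other summaries of the ratios, and leaving out each library. The fit was tested on simulated data of 14227 genes, where it called 194 of 200 genes changed by a log2 fold change of 3 and 4 unchanged genes. The simulation used a dispersion (spread beyond counting error) of 0.05 throughout and changed no genes of few reads. It held no library set apart as HFpEF 3 was, so it does not give the power in these data. Software was Python 3.11.15, pandas 2.3.3 and scipy 1.17.1.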

Additional observations from a re-analysis of the deposited data

How the results depend on the processing

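Depth limits the low genes most: the Chow value of Plin1 and Car3 rests on 1 read and that of Pck1, Cyp2e1, Adrb3 and Acvr1c on 2 or 3, and 3 mice per group limit every comparison. The 14 genes with every HFpEF library above every Chow library were 22 relative to ventricular cardiomyocyte markers and 14 to 20 when a library was left out, with 20 (Ucp1 among them) without HFpEF replicate 3. The median log2 ratio over all 30 genes, 1.01, was 1.63 with equal totals over nuclear genes and 0.866 to 1.26 with a library left out. The 2 genes lower in every HFpEF library were 0 relative to cardiomyocyte markers, 1 with equal totals over nuclear genes and 2 to 3 with a library left out; these checks of the lower genes were chosen after seeing the data. Genes called in the limma fit of all genes past both thresholds (adjusted p under 0.05, log2 fold change of 2 or more in size) numbered 8, but 2 with a pseudocount of 1, 3 with a pseudocount of 0.01, 5 with an FPKM minimum of 1, 19 without trend and robust options, 14 with voom on recovered reads and 2 to 59 with a library left out. The lowest count was without any 1 Chow library and the highest without HFpEF replicate 3. With the replicate block it was 2. The further list genes called numbered 2, but 0 with a pseudocount of 1 or 0.01, with no filter or with the replicate block, 6 with voom on recovered reads, and 0 to 27 with a library left out, the highest again without HFpEF replicate 3. The ratio of thermogenic to adipokine genes in HFpEF replicates 1, 2 and 3 was 0.694, 0.597 and 0.422 by geometric means, 2.22, 2.72 and 1.45 without the leading gene of each group, and 1.52, 1.59 and 0.986 in recovered reads, so that replicate 3 was lowest each way; the droplet ratio was highest in replicate 3 without the leading gene and in recovered reads, and the lipid metabolism ratio without the leading gene. Genes near absent in Chow numbered 24, and 6 at most 1 read in Chow and at least 30 in HFpEF, all 6 in the list, which was drawn up with this difference known. Cidea and Elovl3, whose reads were not recovered as whole numbers, entered the recovered-read ratio as rounded values. The causes of these shifts were not tested.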
